A study of Rattus norvegicus with 183 samples.

Results

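The genes described here are Cabp7, Scn4b, Syt2, Pvalb, Spp1, Lamp5 and Arpp21, 7 of the 38354 genes in a table of gene expression in the posterior ventral tegmental area of the rat. They were listed together as genes of large projection neurons that are low where dopamine neuron genes are high. They were selected on that fall, so their relation to dopamine genes is given as a description with no test. The tests are on other relations: those of the genes to one another and to markers of nearby cell groups once the dopamine genes are taken into account, and any difference between the labelled sets of animals. Genes and marker lists were chosen with earlier results of these data known, so the tests are not independent of the data.

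PolyA RNA came from the dissected region of outbred laboratory rats, and the labels give no strain, genotype, treatment, age or sex. Of 183 samples 31 are labelled as removed, and the others have a column of values. The one label that divides the animals is the form of the identifier in the title, which is decimal for 63 libraries, hexadecimal for 88 and of another form for 1. Nothing in the labels says what the forms stand for or ties animals to a litter or batch, so p-values measure only the spread between these libraries.

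The libraries hold 15.2 to 57.2 M estimated counts (M stands for 1e6, median 24.3 M), and levels are counts per 1e6 counts (CPM). Th, which encodes the first and limiting enzyme on the path to dopamine, lay at 577 to 3934 CPM in 141 libraries (53 decimal, 87 hexadecimal, 1 other). In the other 11 it was at most 3.47 CPM, which goes against their tissue label, and these are kept apart below. In 6 of the libraries with Th there was also over 100 CPM of Slc17a7, the vesicular glutamate transporter gene of cortical neurons. The fits use the 140 libraries with Th and a decimal or hexadecimal identifier, and the library of another form was dropped because it has no partner.

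As background, neurons with long, thick axons or high firing rates share a set of proteins. Neurofilaments set axon calibre, Kv1 and Kv3 potassium channels and resurgent sodium current allow brief and repeated spikes, fast calcium sensors and buffers serve release at high rates, and perineuronal nets of aggrecan and link proteins enclose the cell. In the ventral midbrain such cells lie beside the dopamine neurons, among them the glutamatergic neurons of the red nucleus, the cholinergic motor neurons of the oculomotor nucleus and the fast GABA neurons of the substantia nigra reticulata. A dissected sample holds a mixture, and in such bulk RNA fewer cells of a type and less RNA per cell cannot be told apart.

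By role, Scn4b encodes the beta-4 subunit of voltage-gated sodium channels, which takes part in resurgent current. Syt2 encodes synaptotagmin 2, a fast calcium sensor of transmitter release, Pvalb encodes the calcium buffer parvalbumin, and Cabp7 encodes a calcium-binding protein of the calmodulin-like family. Spp1 encodes osteopontin, a secreted phosphoprotein made by some large projection neurons and by activated microglia. Lamp5 encodes a lysosome-associated membrane protein of neurons, and Arpp21 a cAMP-regulated phosphoprotein that is abundant in striatum and cortex.

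The genes lie apart in the genome. The table gives 1 position per gene, and for each of the 7 this position is an end of the gene of that symbol in RefSeq's rat assembly GRCr8. Cabp7 lies on chromosome 14 (83822322 to 83832667), as does Spp1 (5613569 to 5620695). Scn4b (54343873 to 54359046) and Arpp21 (120912964 to 121077586) lie on chromosome 8, Syt2 (48639634 to 48749814) on chromosome 13, Pvalb (111653820 to 111668469) on chromosome 7 and Lamp5 (143825197 to 143837699) on chromosome 3. All are protein-coding.

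For 3 of them the start in RefSeq's promoter table equals the position in the deposited table, and the 250 bases before that start are shown 5′ to 3′ on the gene's own strand (RefSeq, GRCr8). Cabp7 and Scn4b are shown because they rise and fall closely together in these libraries, and Lamp5 because its partial correlation with Scn4b is near 0. Capitals mark the GC box GGGCGG in Cabp7 and the E-box CAGCTG in Scn4b, and Lamp5 has no match to any of the 4 motifs searched. The windows are chr14:83832668-83832917 on the minus strand for Cabp7, chr8:54343623-54343872 on the plus strand for Scn4b and chr3:143824947-143825196 on the plus strand for Lamp5.
Cabp7: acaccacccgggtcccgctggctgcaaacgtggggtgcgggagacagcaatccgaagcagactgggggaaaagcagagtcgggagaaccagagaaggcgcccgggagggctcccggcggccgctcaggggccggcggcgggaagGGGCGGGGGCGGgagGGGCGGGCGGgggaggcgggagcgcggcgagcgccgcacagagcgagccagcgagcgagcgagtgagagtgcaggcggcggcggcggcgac
Scn4b: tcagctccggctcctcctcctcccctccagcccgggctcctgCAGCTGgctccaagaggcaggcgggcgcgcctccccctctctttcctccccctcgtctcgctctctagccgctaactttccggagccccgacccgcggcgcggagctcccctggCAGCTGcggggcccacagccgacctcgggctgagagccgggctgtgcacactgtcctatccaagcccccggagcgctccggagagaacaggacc
Lamp5: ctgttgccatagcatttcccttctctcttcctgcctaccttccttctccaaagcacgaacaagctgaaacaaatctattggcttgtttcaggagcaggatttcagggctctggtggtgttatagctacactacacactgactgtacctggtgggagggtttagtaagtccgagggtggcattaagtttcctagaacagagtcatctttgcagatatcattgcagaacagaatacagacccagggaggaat
The promoters of Cabp7 and Scn4b are rich in G and C (76% and 71.6%, above 97.4% and 94.0% of all rat promoters in the table), and that of Lamp5 has 46.4%, against a median of 51.2%. On either strand and in the same length of sequence, GGGCGG occurs in 30.5% of 33469 promoters and, among the 7 genes, in Cabp7 and Pvalb. CAGCTG occurs in 12.0% and in Scn4b and Syt2, and TATAAA, the TATA box, in 12.9% and in Spp1. AAGGTCA, an extended site bound by estrogen-related receptors, occurs in 3.99% and is not among these letters in any of the 7 windows. Each window shown holds matches to at most 1 of the motifs. For Syt2, Pvalb, Spp1 and Arpp21 the start in the promoter table lies 97488, 2180, 891 and 46229 bases from the deposited position, so their windows may belong to another transcript and are not shown.

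Syt2 and Spp1 were the most abundant of the 7 where Th is present. Syt2 lay at 72.9, 252 and 815 CPM (lowest, median, highest) in decimal and at 65.3, 216 and 772 CPM in hexadecimal libraries. Spp1 lay at 30.1, 176 and 984 CPM in decimal and at 12.3, 150 and 878 CPM in hexadecimal libraries. Both ranges overlap nearly in full between the formats, and Spp1 had the wider spread (SD 1.31 on the log2(CPM + 1) scale over the 141 libraries with Th, against 0.89 for Syt2).

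Scn4b lay at 10.4, 99.8 and 388 CPM in decimal and at 12.0, 86.2 and 429 CPM in hexadecimal libraries. Pvalb lay at 36.4, 78.5 and 252 CPM in decimal and at 21.1, 69.3 and 396 CPM in hexadecimal libraries. Cabp7 lay at 7.77, 42.6 and 127 CPM in decimal and at 6.56, 37.1 and 553 CPM in hexadecimal libraries. The top of Cabp7 is made by 2 hexadecimal libraries, replicates 25 and 1 (553 and 362.2 CPM), and the third highest value was 127 CPM in decimal replicate 8. Those 2 hexadecimal libraries also have the most Slc17a7 of the libraries with Th (1064 and 607 CPM).

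Lamp5 and Arpp21 were low. Lamp5 lay at 7.11, 16.4 and 50.4 CPM in decimal and at 2.02, 15.5 and 128 CPM in hexadecimal libraries, with hexadecimal replicates 25 and 1 again highest (128 and 89.4 CPM). Arpp21 lay at 6.71, 18.5 and 83.9 CPM in decimal and at 6.31, 20.6 and 102 CPM in hexadecimal libraries, with hexadecimal replicate 25 highest. CPM is not divided by transcript length, so the levels of different genes are not ranked beyond this.

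The 11 libraries without Th separated the genes. Arpp21 was 439 to 507 CPM there, above each library with Th, and Lamp5 was 70.6 to 102 CPM, above each library with Th except hexadecimal replicates 25 and 1. Spp1 was 0.206 to 2.09 CPM and Syt2 6.08 to 17.2 CPM, both below each library with Th. Cabp7 (12.3 to 24.5 CPM), Scn4b (11.2 to 21.9 CPM) and Pvalb (28.4 to 50.8 CPM) lay within the lower part of the range of the libraries with Th. These libraries held 1833 to 2040 CPM of Slc17a7.

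**Figure D1:**
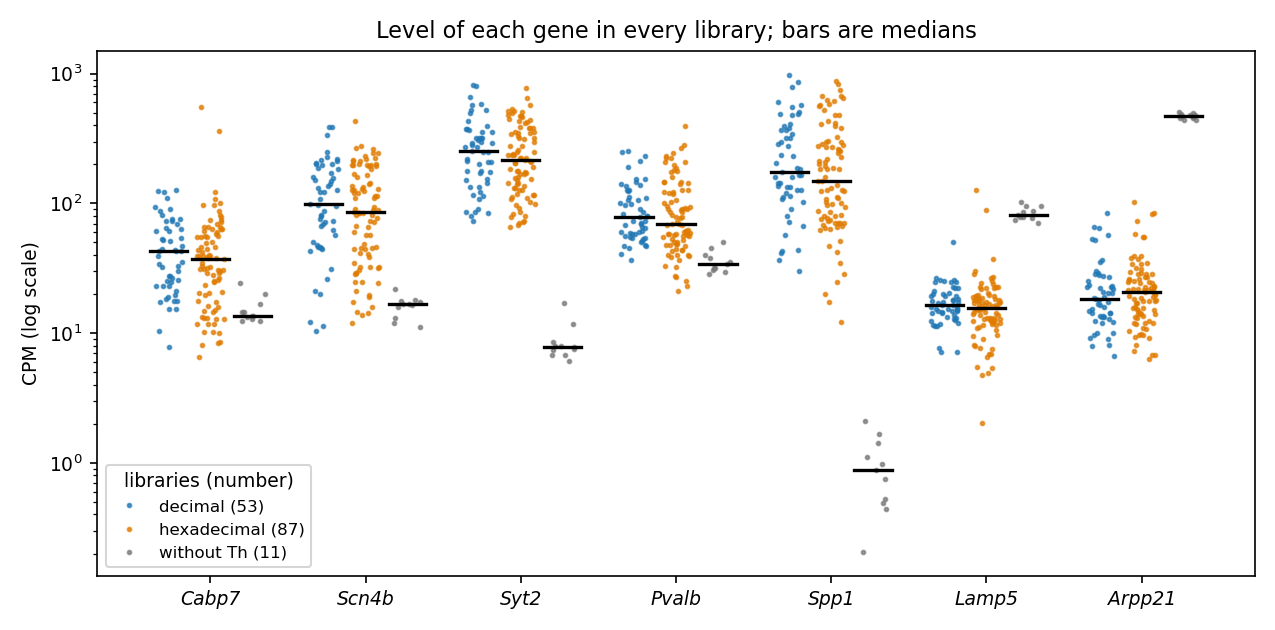
Level of each of the 7 genes in CPM on a log axis, 1 point per library, in decimal (53) and hexadecimal (87) libraries with Th and in the 11 libraries without Th, with bars at the medians (the library of another identifier form is not drawn). Decimal and hexadecimal points overlap for each gene, and the libraries without Th sit high for Lamp5 and Arpp21 and low for Syt2 and Spp1.

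No difference between identifier formats was detected in these genes. By limma on log2(CPM + 1) with Benjamini-Hochberg adjustment over 15536 genes, 0 of the 7 passed an adjusted p of 0.05, and 0 passed unadjusted. In the same fit 38% of all genes passed. The coefficients, hexadecimal minus decimal, ran from -0.28 ± 0.23 (SE) for Spp1 (means 7.30 and 7.58) to 0.06 ± 0.14 for Arpp21 (means 4.42 and 4.36). With the libraries without Th included, 2 of the 7 passed, with no share of all genes given for that fit. Decimal libraries then number 63 in place of 53 and hexadecimal libraries 88 in place of 87. The added libraries are thus nearly all decimal, and format and absence of Th cannot be told apart in that fit.

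The slopes on the dopamine score, which chose the members, are given as a description. The score is the mean z-score of 15 dopamine neuron genes, and slopes are in log2 units per SD of the score with the format as a covariate. Cabp7 had the steepest fall (-0.66), place 3 from the bottom of the 15536 genes, followed by Scn4b (-0.55), Arpp21 (-0.48), Spp1 (-0.43), Lamp5 (-0.42) and Syt2 (-0.40), and Pvalb (-0.36) stood at place 25. Slc17a7 (-0.91) and Cartpt (-0.84), a peptide precursor gene, fell more steeply, and just beyond Pvalb came Sptssb (-0.35), C1ql2 (-0.35), Hapln4 (-0.35), Slc6a4 (-0.35) and a gene without a name. Within that range but outside the list lay Nefh (-0.39), the heavy neurofilament gene. The fall is shallower on Th itself, with r between -0.48 (Cabp7) and -0.14 (Pvalb).

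With the dopamine score and the format held, 27 of the 42 ordered pairs of the 7 genes rose together (limma, adjusted p under 0.05 in a fit of all genes on 1 member). Of these 27, 7 were among the 22 pairs that involve Lamp5 or Arpp21. The share of all 15520 genes that rose was 16.9% with Cabp7, 16.1% with Scn4b, 16.6% with Syt2, 21.5% with Pvalb, 14.7% with Spp1, 15.3% with Lamp5 and 1.31% with Arpp21. These shares rest on the scaling. With median-of-ratios size factors in place of total counts 31.7%, 29.5%, 30.6%, 35%, 28%, 26.2% and 19.3% rose, and 33 of the 42 pairs passed. Without the dopamine score in the fit 40 passed. The genes were chosen on their fall with that score, so a shared rise is partly built in there. Here and below, fits without the score are a description and not a test.

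Cabp7, Scn4b, Syt2, Pvalb and Spp1 had the higher values among the pairs and are called the 5 below. They were singled out because of those values, so their relations to one another are a description with no test.

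Syt2 and Scn4b were the closest pair. Their partial Pearson r, given dopamine score and format, was 0.958, and without these covariates r was 0.967 and Spearman's rho 0.974 (r = 0.967 when the 2 libraries most distant from the median Scn4b are left out). A rise of 1 SD in Scn4b went with a rise of 0.86 ± 0.02 (SE) log2 units in Syt2 in the fit. The release sensor and the sodium channel subunit thus moved along a line that holds in decimal (partial r 0.945) and hexadecimal libraries (0.968) alike.

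The 10 pairs among the 5 had a partial r of 0.53 to 0.96 with a median of 0.69. Cabp7 went with Scn4b (0.873) and Syt2 (0.851) and less with Pvalb (0.531) and Spp1 (0.556). Pvalb and Spp1 formed the other close pair (0.806). In decimal libraries the 10 values ran from 0.61 to 0.95, and in hexadecimal libraries from 0.40 to 0.97.

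The 11 pairs that involve Lamp5 or Arpp21 had a partial r of -0.06 to 0.35 with a median of 0.15. Lamp5 lay near 0 with Scn4b (0.012) and Syt2 (0.006), and its highest value was with Spp1 (0.355, limma slope 0.19 ± 0.04, adjusted p = 9.08e-05). Arpp21 was highest with Cabp7 (0.291, slope 0.23 ± 0.07, adjusted p = 0.00111) and near 0 with Pvalb and Spp1. Between Lamp5 and Arpp21 the partial r was 0.088 (slope 0.07 ± 0.07, adjusted p = 0.444), although without the dopamine score in the fit Arpp21 rose with Lamp5 (slope 0.34, adjusted p = 1.57e-06). Lamp5 did not pass in the fit on Cabp7 (adjusted p = 0.098), but it did without the dopamine score (slope 0.32, 5.46e-09), with median-of-ratios scaling (0.18, 0.000976), with the forebrain glutamate score as a covariate (0.18, 0.00122), with a pseudocount of 5 (0.0458) and with the libraries without Th (5.09e-06).

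**Figure D2:**
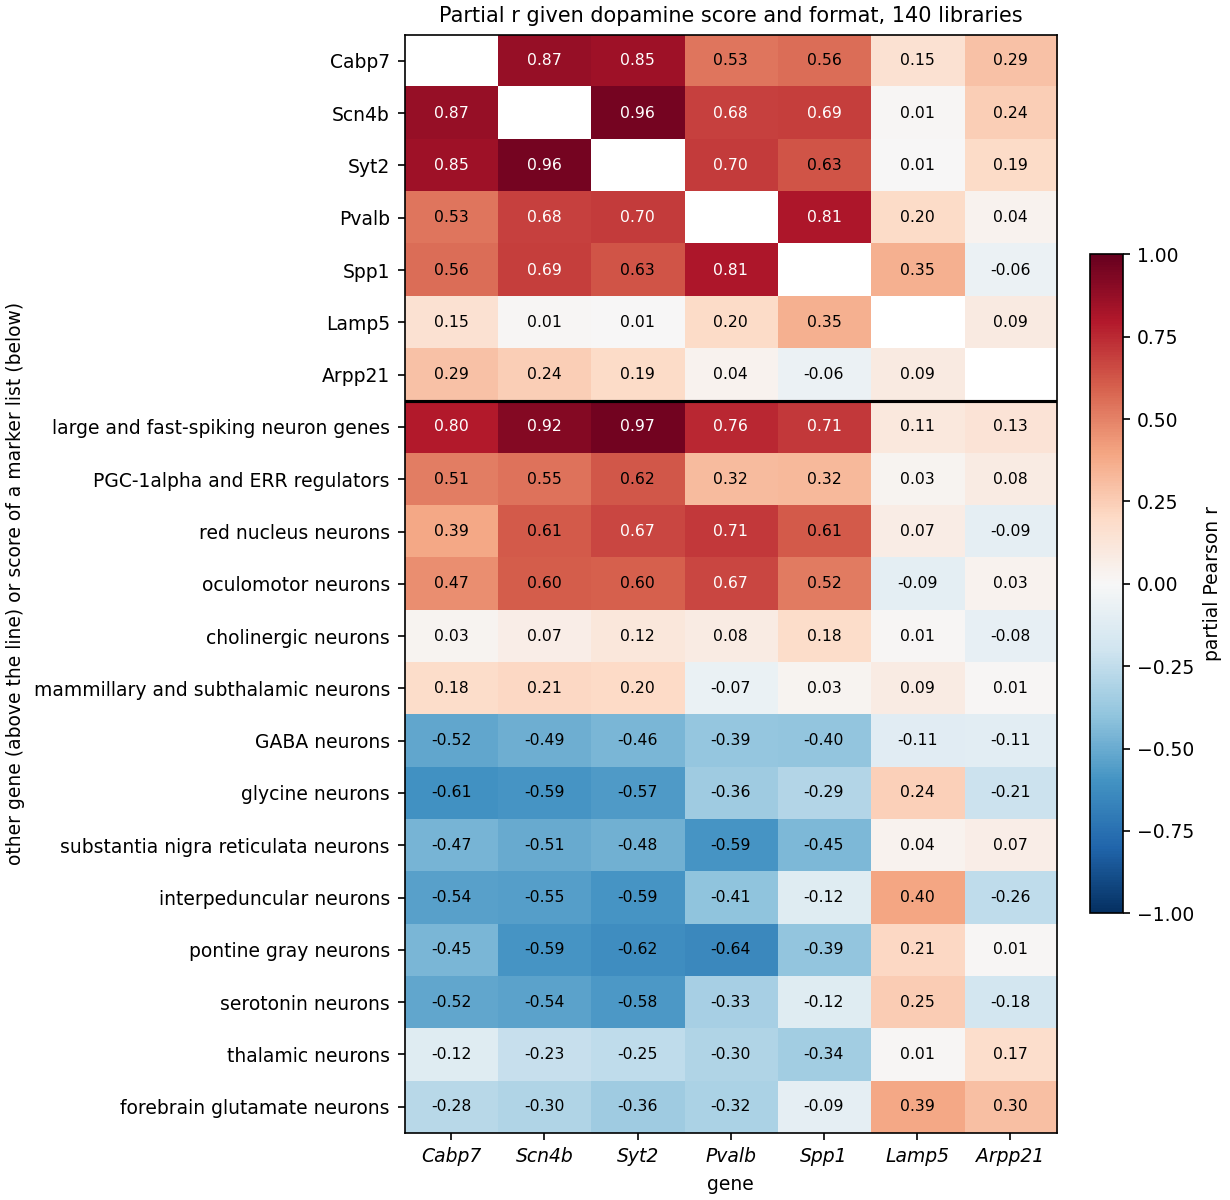
Partial Pearson r over 140 libraries, given dopamine score and identifier format, of each gene (columns) with the other members (rows above the line) and with the scores of 14 marker lists (rows below). The 5 genes at the upper left form a block of 0.53 to 0.96, and the columns of Lamp5 and Arpp21 stay between -0.26 and 0.40.

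A shared library component moves with the 5. The first principal component of the residuals of genes in no list held 32.4% of their variance, and its partial r was 0.42 to 0.70 with the 5 (0.70 with Pvalb), 0.16 with Lamp5 and 0.15 with Arpp21. With that component as a further covariate 24 of the 42 ordered pairs passed, and 29 did without the 6 libraries high in Slc17a7. The log2 total count had a partial r of -0.21 to -0.01 with the 7 genes.

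Genes of large and fast-spiking neurons, a list of 17 that holds none of the members, moved with the 5. The list's score went with Syt2 (slope 0.91 ± 0.02 log2 units per SD, adjusted p = 4.61e-82), Scn4b (1.21 ± 0.04), Cabp7 (0.78 ± 0.05), Pvalb (0.68 ± 0.05) and Spp1 (1.03 ± 0.09), 5 of 7 members by limma, where 16.2% of all genes rose. In the fit on each of the 5, 16 of the 17 list genes rose, with a median slope of 0.24 (Spp1) to 0.46 (Syt2) against -0.05 to -0.03 over all genes. The members of the list span axon calibre (Nefl, Nefm and Nefh, partial r with Scn4b 0.90 to 0.92), potassium channels (Kcna1 0.92), the pacemaker channel gene Hcn2 (0.75) and the perineuronal net genes Acan (0.87) and Hapln4 (0.85). The exception was Kcnab3, a potassium channel beta subunit gene, with -0.48 to -0.31 in the 5 fits. With Lamp5 4 of the 17 rose, and with Arpp21 0. With median-of-ratios scaling these became 9 and 13, and the count with each of the 5 was again 16. On the score Lamp5 and Arpp21 did not pass (slopes 0.06 and 0.10). They passed with median-of-ratios scaling (0.14 and 0.19, adjusted p = 0.0051 and 0.00276), with the forebrain score as a covariate (0.15 and 0.18) and with the libraries without Th (0.18 and 0.14), so that 7 of 7 members rose there. Without the dopamine score the slopes were 0.26 and 0.32, which is a description because the fall on that score chose the genes. The share of all genes that rose was 30.5% with median-of-ratios scaling.

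Sodium channel genes divided within their family. With each of the 5, 3 of 7 genes of the family rose, Scn1a and Scn8a among them, and Scn2a, Scn2b, Scn3a and Scn3b fell (limma). The share of all genes that fell was 46% with Cabp7, 46.2% with Scn4b, 48.9% with Syt2, 52.8% with Pvalb and 42.6% with Spp1. With median-of-ratios scaling these shares were 34.7%, 33.3%, 35%, 39.7% and 31.9%, nearer to the shares that rose, and the counts of 3 rising and 4 falling were the same. Scn8a, which encodes the Nav1.6 channel of axon initial segments, had a partial r of 0.90 with Syt2 and 0.82 with Scn4b. Scn2b, another beta subunit gene, had -0.77 with Pvalb and -0.50 with Scn4b.

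The genes of the synaptotagmin and calcium-binding lists also went both ways. Syt1, the sensor gene of most forebrain synapses, had a partial r of -0.66 to -0.44 with the 5, Syt9 had -0.68 to -0.32, and Syt7 stayed between -0.08 and 0.14 (0.17 to 0.35 with median-of-ratios scaling). All 7 members rose on the score of 6 EF-hand genes, Lamp5 (slope 0.17 ± 0.06) and Arpp21 (0.37 ± 0.07) included, where 13.3% of all genes rose. Without the dopamine score in the fit 0 rose and 3 fell, and with the libraries without Th 0 rose and 1 fell. Among the EF-hand genes Cabp1 had 0.77 to 0.89 with the 5 and Vsnl1 0.32 to 0.66, while Calb2 had -0.43 to -0.21 and Hpcal4 -0.62 to -0.25. Of the regulators that are known to drive parvalbumin-neuron genes, the nuclear receptor genes Esrra (0.36 to 0.59) and Esrrg (0.43 to 0.66) went with the 5, and Ppargc1a, which encodes PGC-1alpha, stayed between -0.13 and 0.28 (0.03 to 0.45 with median-of-ratios scaling). The score of these 3 rose with 5 of 7 members, where 25.9% of all genes rose. For Pvalb this held in decimal libraries (partial r 0.71), and in hexadecimal libraries alone it did not pass (0.11, slope 0.11, adjusted p = 0.424).

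By the rule that names the genes most like each member, genes near Syt2 included Sgpp2 (partial r 0.963 over 140 libraries) and Nat8l (0.962). The nearest to Pvalb were Hebp2 (0.900) and Fgf9 (0.897), and the nearest to Spp1 were Nefl (0.882) and Ppp1r1c (0.881). Cables2 and Cabp1 were among the 50 genes most like each of the 5, and Gpat3, Hapln4, Kctd9, Sgpp2 and Vamp1 among those of 4. Nearest to Lamp5 were Zmat4 (0.683) and Olfm1 (0.677). Near Arpp21 were Itpka (0.673) and Kcnh3 (0.665), and Slc17a7 stood at place 12 (0.554). Furthest from Syt2 were LOC102555148 (-0.806) and Itm2c (-0.797), and furthest from Lamp5 was Prkcq (-0.683).

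GABA neuron genes moved against the 5. On the score of 7 GABA genes, Scn4b fell by 0.55 ± 0.08 log2 units per SD (limma, adjusted p = 4.71e-08), Spp1 by 0.49 ± 0.10, Cabp7 by 0.44 ± 0.06, Syt2 by 0.37 ± 0.06 and Pvalb by 0.30 ± 0.06 (adjusted p = 2.88e-05). Of all genes 12.2% fell on this score, and 5 of 7 members did. The coefficients of Lamp5 and Arpp21 were -0.06 ± 0.04 and -0.07 ± 0.05 (adjusted p = 0.274 and 0.294).

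Single GABA genes differed in this. The GABA transporter gene Slc32a1, at 49.97 to 357 CPM, had a partial r of -0.52 to -0.31 with the 5 and Gad1 of -0.63 to -0.21, while Gata3, a transcription factor gene of midbrain GABA neurons, stayed between -0.13 and 0.18. Decimal libraries had a partial r of -0.64 to -0.56 between the score and the 5, and hexadecimal libraries -0.46 to -0.30. The interaction of score and format passed for 0 of the 7 genes and for 0% of all genes (limma), with 1206 genes and 2 members, Scn4b and Syt2, at an unadjusted p under 0.05. With the libraries without Th included, 1 of 7 members passed on this score, with no share of all genes given for that fit.

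**Figure D3:**
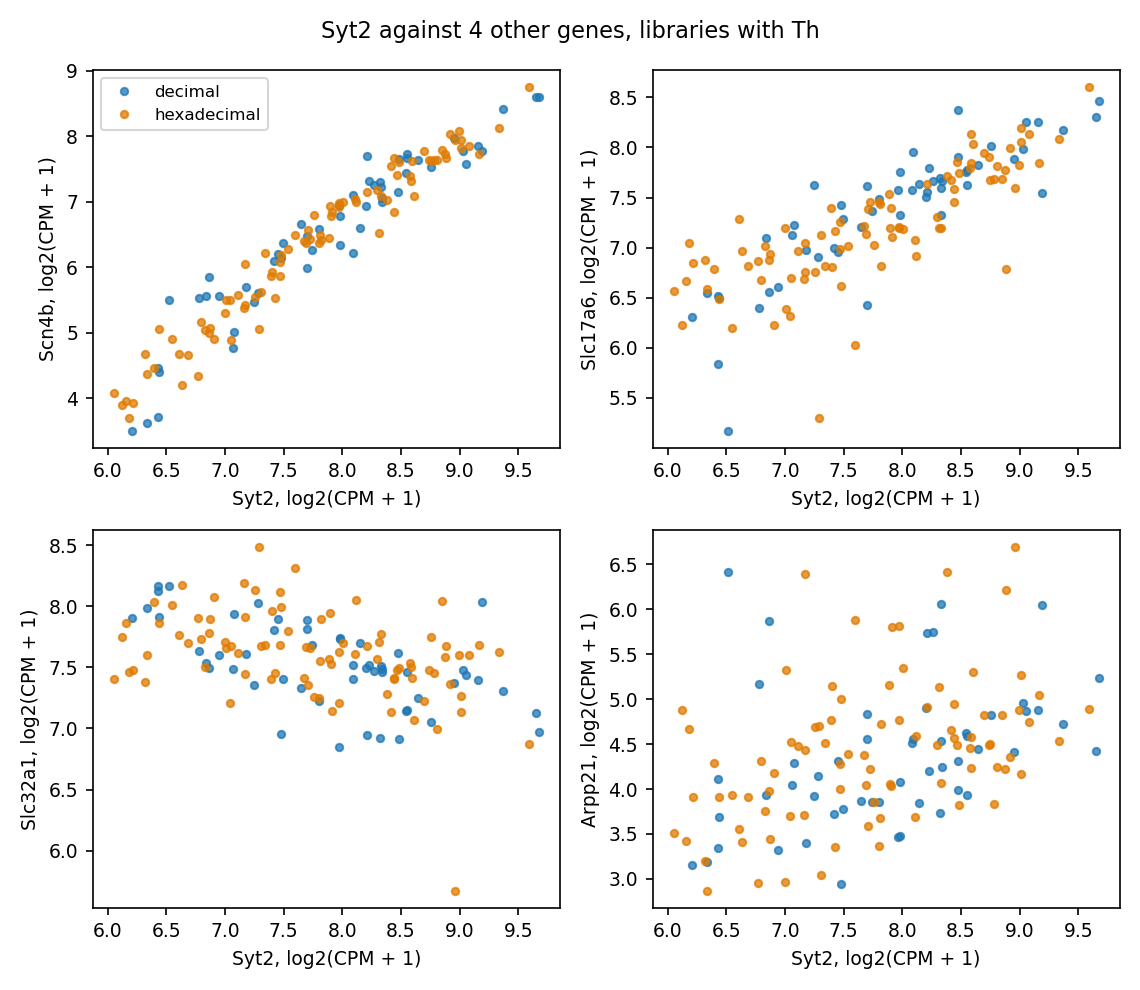
Syt2 (horizontal, log2(CPM + 1)) against Scn4b, the glutamate transporter gene Slc17a6, the GABA transporter gene Slc32a1 and Arpp21 (vertical, log2(CPM + 1)), 1 point per library with Th, coloured by identifier format. Scn4b follows Syt2 closely, Slc17a6 rises with it (partial r 0.85), Slc32a1 lies lower where Syt2 is high (-0.47) and Arpp21 scatters widely (0.19).

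Fast GABA neurons of the substantia nigra reticulata hold much parvalbumin, and their markers moved the same way as the GABA score. On the score of a list of 4 genes, among them Six3, Zfpm2 and Pax5, 5 of 7 members fell, where 22.3% of all genes fell. Pvalb had a slope of -0.46 ± 0.05 (limma, adjusted p = 1.95e-13). Pax5 had a partial r of -0.55 to -0.20 with the 5. Six3 was positive with Cabp7, Scn4b and Syt2 (0.27 to 0.38) and negative with Spp1 (-0.27).

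Markers of the red nucleus went up with the 5. On the score of Pou4f1, Emx2, Nkx6-1 and Slc17a6, Spp1 rose by 0.78 ± 0.09 log2 units per SD, Scn4b by 0.70 ± 0.08, Pvalb by 0.55 ± 0.05 (limma, adjusted p = 1.37e-19), Syt2 by 0.55 ± 0.05 and Cabp7 by 0.33 ± 0.07. Of all genes 10.8% rose, and 5 of 7 members did. Lamp5 (0.04 ± 0.04) and Arpp21 (-0.06 ± 0.06) did not pass, though without the libraries over 100 CPM of Slc17a7 Lamp5 did (0.14, adjusted p = 0.00169). In hexadecimal libraries alone Cabp7 had a slope of 0.17 (adjusted p = 0.213). Partial r there, from residuals of the fit over both formats, was 0.17, against 0.74 in decimal libraries.

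The list's genes did not move as one. Slc17a6, the vesicular transporter gene of subcortical glutamate neurons, which some neurons of the tegmental area also express, lay at 35.1, 155 and 388 CPM and had a partial r of 0.85 with Syt2, 0.79 with Scn4b, 0.66 with Cabp7, 0.58 with Pvalb and 0.49 with Spp1. Pou4f1, a transcription factor gene of red nucleus and medial habenula, lay at 0, 17.9 and 41.7 CPM and was highest with the genes that were lowest for Slc17a6, 0.72 with Pvalb and 0.68 with Spp1, then 0.46 with Syt2, 0.44 with Scn4b and 0.21 with Cabp7. Emx2 had 0.62 to 0.87 with the 5, at a median of 1.62 CPM. Nkx6-1 went the other way, with -0.58 with Cabp7, -0.54 with Scn4b and -0.22 with Spp1. C1ql2, in no list, was among the 5 genes most like Spp1 (0.865).

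Hexadecimal replicate 25 shows the genes apart. It held 553 CPM of Cabp7, the highest, and 498 CPM of Syt2 (place 15 of the 141 libraries with Th) with 57.4 CPM of Pvalb (place 98), 0 CPM of Pou4f1 and 4.62 CPM of C1ql2. Decimal replicate 8 held 815 CPM of Syt2, the highest, with 249.4 CPM of Pvalb (place 5) and 41.7 CPM of Pou4f1, the highest. Its Slc17a7 was 3.01 CPM, against 1064 CPM in hexadecimal replicate 25.

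The cholinergic genes went both ways with the 5, and their score gave no call. On the score of Chat, Slc18a3 and Slc5a7, 0 of 7 members passed in either direction (limma), 1 at an unadjusted p under 0.05, where 17.9% of all genes passed. Spp1 had the highest coefficient (0.23 ± 0.10, adjusted p = 0.101) and Arpp21 the lowest (-0.05 ± 0.05). Chat, the gene of the acetylcholine-synthesising enzyme, was 0.294, 1.53 and 33.1 CPM in decimal and 0.150, 1.30 and 7.29 CPM in hexadecimal libraries. In the fits on single members Chat rose with Cabp7, Scn4b and Syt2 (partial r 0.13 to 0.29 over the 5). Slc18a3, the vesicular acetylcholine transporter gene, rose with Scn4b, Syt2, Pvalb and Spp1 (0.16 to 0.30 over the 5). The choline transporter gene Slc5a7 fell with Cabp7, Scn4b, Syt2 and Pvalb (-0.31 to -0.21) and had 0.02 with Spp1.

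The formats went different ways on this score. The partial r of the 5 was 0.27 to 0.35 in decimal and -0.29 to 0.02 in hexadecimal libraries. The interaction passed for 4 of 7 members, with 35.6% of all genes passing. Without decimal replicates 8 and 20, the libraries with the most Chat (15.9 and 33.1 CPM), 0 of 7 passed. The share of all genes is not given for that fit, so the loss is not read as particular to the members.

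Those same libraries stand at the top for several members. Decimal replicates 8 and 20 had the highest and second highest Syt2 (815 and 803 CPM), and replicate 20 the highest Spp1 (984 CPM). Hexadecimal replicate 30, with the highest Scn4b (429 CPM) and the lowest Th (577 CPM), held 7.29 CPM of Chat (place 5). Many libraries with much Syt2 or Spp1 had Chat near the median, as the plot of Syt2 and Spp1 against Chat shows.

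**Figure D4:**
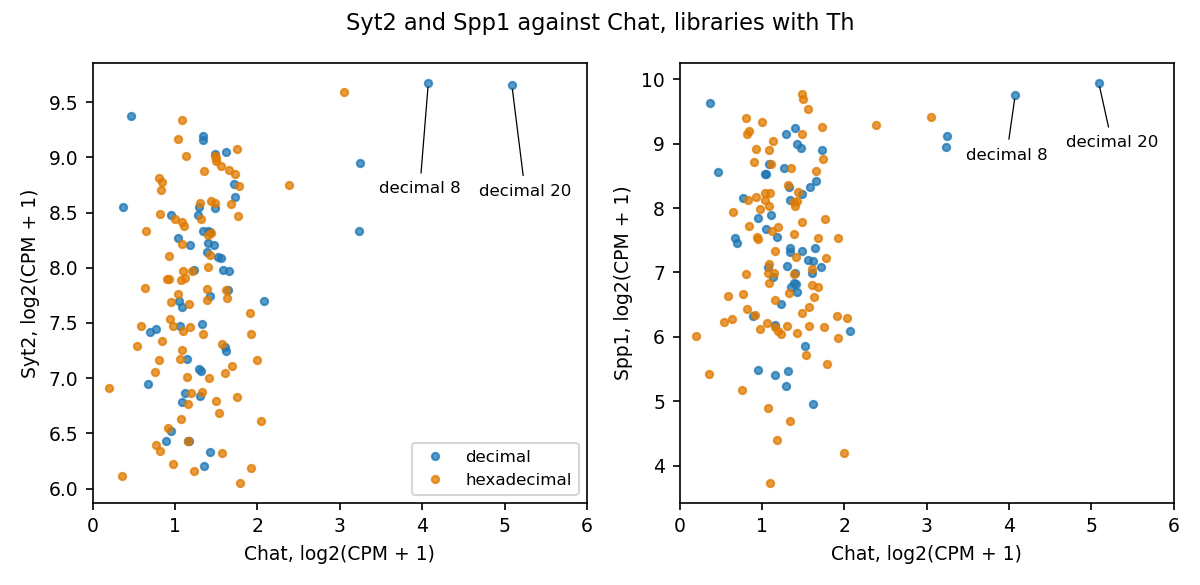
Syt2 (left) and Spp1 (right) against Chat, all in log2(CPM + 1), 1 point per library with Th, coloured by identifier format. Decimal replicates 8 and 20 (Chat 15.9 and 33.1 CPM) lie far to the right near the top, and the other libraries span the whole range of Syt2 and Spp1 at low Chat.

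The 5 rose with the oculomotor score, but few genes of that list could be tested. Of its 6 genes 4 were below the filter, among them Isl1, Phox2a and Tbx20 with medians of 0, 0.0316 and 0.0746 CPM, so the score holds Prph and Calca alone. On it 5 of 7 members rose, where 17.8% of all genes rose, with slopes of 0.42 ± 0.07 (Cabp7) to 0.73 ± 0.08 (Scn4b). Prph, which encodes the intermediate filament peripherin, lay at 20.1, 53.3 and 136 CPM and had a partial r of 0.85 with Pvalb and 0.82 with Spp1. Calca, a peptide gene of motor neurons, stayed between -0.11 and 0.13 with the 5. Without the dopamine score in the fit Cabp7 did not pass (slope 0.11, adjusted p = 0.314). With the libraries without Th, Pvalb alone of the 5 rose and Lamp5 fell (-0.16, adjusted p = 0.0036). Cabp7, Scn4b, Syt2 and Spp1 did not pass there (adjusted p = 0.0578 to 0.838). Of an Edinger-Westphal list of 2 genes, Ucn was below the filter, so no score was fitted. The other gene, Cartpt, rose with Cabp7 (limma slope 0.94), Scn4b (0.91), Syt2 (1.09) and Pvalb (0.82), where 16.1% to 21.5% of all genes rose. It did not pass with Spp1 (0.13), Lamp5 (-0.21) or Arpp21 (0.59). Cartpt varied widely (SD 2.21 on the log2(CPM + 1) scale over the 141 libraries with Th). What this relation stands for was not tested.

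**Figure D5:**
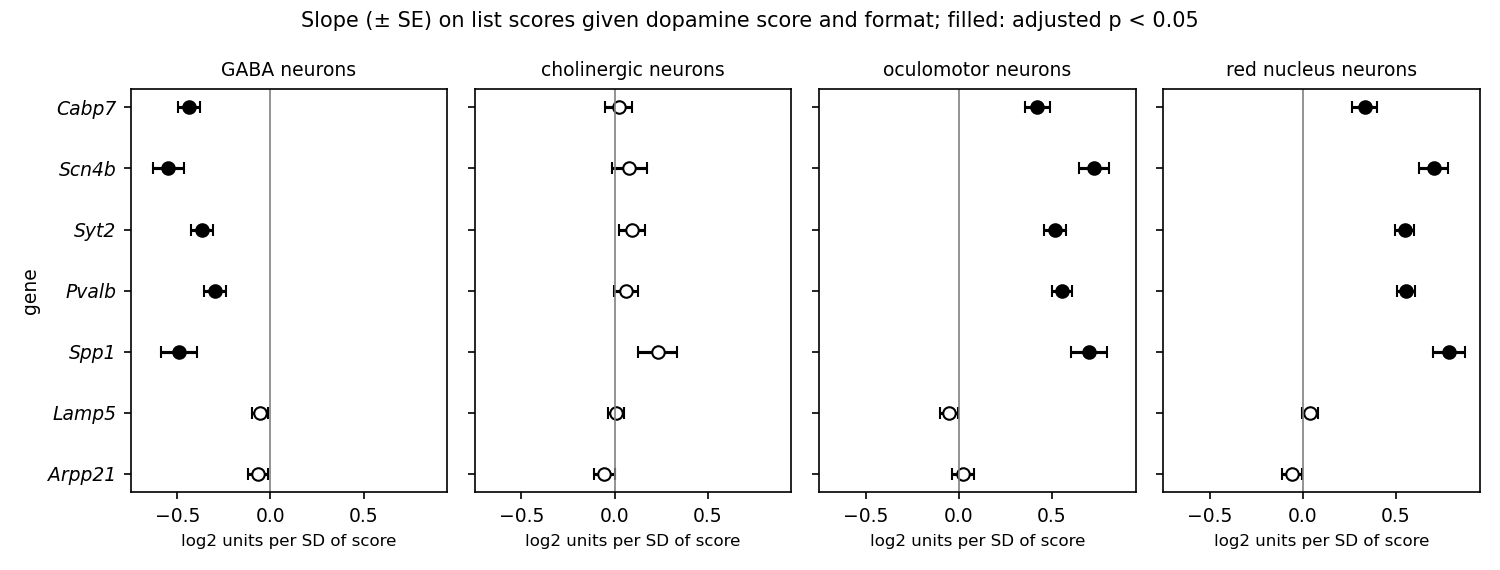
Slope of each gene, in log2 units per SD with bars of 1 SE, on the scores of GABA, cholinergic, oculomotor and red nucleus genes over 140 libraries, given dopamine score and format, with filled points where limma's adjusted p is under 0.05. The 5 upper genes are negative for GABA and positive for the oculomotor and red nucleus scores, all 7 are open for the cholinergic score, and Lamp5 and Arpp21 stay near 0 in the 4 panels.

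Most members fell on the scores of several other nearby cell groups, and Lamp5 rose on 4 of them. On the glycine score 6 of 7 members fell, Arpp21 among them, and Lamp5 rose, where 14.7% of all genes fell and 40.5% rose. That score holds 2 genes, Slc6a5 and Slc32a1. Slc32a1 is also in the GABA list, so the glycine and GABA scores are not separate measures. On the interpeduncular score 5 fell, again with Arpp21, and Lamp5 rose (18.4% and 49.2% of all genes), and Spp1 did not pass (partial r -0.12). The pontine gray score gave 5 falling and Lamp5 rising (20.5% and 51.6%), and the serotonin score 4 falling and Lamp5 rising (11.7% and 23.6%). The pontine gray score holds Zic1, Neurod1 and Pax6, since Barhl1 of that list was below the filter. Barhl1 was highest in hexadecimal replicates 25 and 1 (47.9 and 42.0 CPM), which also had the most Cabp7 and Lamp5 of the libraries with Th. The rises of Lamp5 were not stable. With median-of-ratios scaling those on the glycine (adjusted p = 0.104), pontine gray (0.309) and serotonin scores (0.0561) did not pass. On pontine gray the slope without the libraries over 100 CPM of Slc17a7 was 0.0008 (adjusted p = 0.987), and on the interpeduncular score without the dopamine score it was 0.02 (0.738).

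On the thalamic score 4 fell, where 3.74% of all genes fell, led by Spp1 (-0.43 ± 0.10). Of these calls 1 was left with median-of-ratios scaling, where Scn4b, Syt2 and Pvalb did not pass (adjusted p = 0.405, 0.38 and 0.252), and 0 in decimal libraries alone or with the libraries without Th. On the mammillary and subthalamic score Scn4b and Syt2 rose (0.24 ± 0.09 and 0.16 ± 0.07), 2 of 7 where 31.4% of all genes rose, which is no more than the background. Both calls were lost in hexadecimal libraries alone (adjusted p = 0.224 and 0.475), with a pseudocount of 5 (0.37 and 0.366) and with every gene tested (0.0596 and 0.0701). Cabp7 did not pass (0.15 ± 0.07, adjusted p = 0.0601), but it rose under several alternatives. Among them were median-of-ratios scaling (0.21, 0.0273), decimal libraries alone (0.30, 0.0433), a pseudocount of 0.1 (0.0174) and the forebrain covariate (0.0274). With median-of-ratios scaling 17.5% of all genes rose on this score.

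On the score of forebrain glutamate genes Lamp5 rose by 0.20 ± 0.04 and Arpp21 by 0.19 ± 0.05 (limma, adjusted p = 1.29e-05 and 0.000959), 2 of 7 where 43.7% of all genes rose. A share of 2 of 7 is below that background. Cabp7, Scn4b, Syt2 and Pvalb fell, 4 of 7 where 15.2% of all genes fell, and Spp1 did not pass. The rise of Arpp21 was lost without the libraries over 100 CPM of Slc17a7 (0.08, adjusted p = 0.175), in hexadecimal libraries alone (0.07) and by ranks (0.0508), and with the libraries without Th both rises were lost. The 4 falls did not pass in decimal libraries alone (adjusted p = 0.0797 to 0.205) or with the residual component as a covariate (0.162 to 0.872). Lamp5 went with Neurod6 (partial r 0.51) and Arpp21 with Tbr1 (0.56) and Slc17a7 (0.55). The summed level of the 9 genes of this list was 67.6 to 317 CPM in decimal and 47.8 to 1182 CPM in hexadecimal libraries with Th, and 2551 to 2826 CPM in the libraries without Th. Its part in the levels of Lamp5 and Arpp21 was not tested.

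Scores of glia, meninges and vessels were related to the 5 as well, and the 5 fell on each of them except the oligodendrocyte score. On the astrocyte score (Aldh1l1, Aqp4, Gfap, Slc1a3) 5 of 7 members fell, where 22.8% of all genes fell, with a partial r of -0.57 to -0.76, and the list's summed level ran from 1005 to 7311 CPM in hexadecimal and from 1024 to 5562 CPM in decimal libraries. On the oligodendrocyte score Cabp7, Scn4b and Syt2 rose, 3 of 7 where 14.3% of all genes rose. Lamp5 fell on it (-0.19 ± 0.04, limma, adjusted p = 3.89e-05), where 32.6% of all genes fell. Without the dopamine score in the fit 4 members rose on it and 0 fell. The list's summed level was 17795 to 46930 CPM over both formats. The score of 5 meningeal fibroblast genes, among them the collagen gene Col1a1, gave 5 of 7 members falling, where 21.1% of all genes fell, with a partial r of -0.57 to -0.40. In the fit on each of the 5, 5 of 5 genes of that list fell, and their summed level ran from 45.4 to 1488 CPM in decimal and from 45.9 to 3551 CPM in hexadecimal libraries. On the endothelial score 6 of 7 members fell, Lamp5 among them (-0.10 ± 0.04, adjusted p = 0.0334), where 18.3% of all genes fell. On the microglia score 5 of 7 fell, where 13.3% of all genes fell, with a partial r of -0.62 to -0.34. With median-of-ratios scaling 7 of 7 members fell on the astrocyte and on the meningeal score, where 36.7% and 35.8% of all genes fell. The summed levels were 154 to 324 CPM for endothelium and 189 to 397 CPM for microglia over both formats. The part of glial, meningeal and vascular content in the relations above was not tested. Spp1, which microglia can make, had a partial r of -0.39 to -0.13 with the 6 microglial genes, none of them positive.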

How the data were processed

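Expression was measured by RNA sequencing of polyA RNA. The authors quantified transcripts with kallisto 0.48, per the submitters' processing notes, and deposited log2 values per gene. No label states the unit: the values behave as log2(estimated count + 1), since back-transformed totals lie between 15.2 and 57.2 M and 55.7% of back-transformed values under 100 are whole to within 0.001. The authors' genome build is not given, and 38278 of 38354 gene names have a symbol in RefSeq's GRCr8 table. Values were back-transformed (2 to the power of the value, minus 1), scaled to CPM and used as log2(CPM + 1). Of 34551 genes with any count, the 15536 with a mean of at least 1 were tested, all 7 members among them.

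limma 3.58.1 (R 4.3.3, eBayes with trend) fitted each gene on 1 member (7 fits) or 1 list score (22 fits, mean z-score of the list's genes) with the dopamine score and identifier format as covariates. Benjamini-Hochberg adjustment ran over all genes within a fit, not across fits. The gene or list fitted on and the dopamine genes were left out of the tested set. Correlations have no p-values of their own. A partial r within 1 format correlates residuals of the fit over all 140 libraries, so the dopamine score was not refitted within that format. Genes named are the members, the list genes, the nearest and furthest genes of each member and the neighbours in the order of dopamine slopes, and C1ql2 in the account of single libraries was picked with its values in view. The members and lists were chosen with earlier results of these data known. Alternatives changed the covariates, the libraries, the scaling, the pseudocount (0.1 or 5), the filter and the values (ranks). Apart from median-of-ratios scaling, shares of all genes are not given for them. Counts of members under the other alternatives are therefore not read as particular to the members. The fits were tested on simulated data.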

Additional observations from a re-analysis of the deposited data

Results flagged for a closer look

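The relation to the cholinergic score differed between identifier formats for 4 genes by the interaction term (limma, 140 libraries). The hexadecimal minus decimal slope, in log2 units per SD of the score, was -0.50 ± 0.15 (SE) for Cabp7 (adjusted p = 0.0091), -0.41 ± 0.14 for Syt2 (0.0208), -0.50 ± 0.20 for Scn4b (0.0445) and -0.34 ± 0.14 for Pvalb (0.0498). In the same fit 35.6% of all genes passed. Without decimal replicates 8 and 20, chosen after the data were seen as the libraries with the most Chat, 0 of 7 passed, with no share of all genes given.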

How the results depend on the processing

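Of the 42 ordered pairs of members 27 passed, against 22 to 40 under the alternatives. The 40 were without the dopamine score, on which the members were chosen, so that count is a description. With the libraries without Th included, members passing fell from 5 to 1 on the GABA score. On the oculomotor score they fell from 5, all rising, to 2, of which Pvalb rose and Lamp5 fell. They rose from 0 to 2 for identifier format, where nearly all the added libraries are decimal. On the cholinergic score 0 passed, against 1 in hexadecimal libraries alone and 2 with the first residual component as a covariate, a setting chosen after seeing the data. The format difference on that score passed for 4 members, against 2 without the libraries over 100 CPM of Slc17a7, 1 with median-of-ratios scaling, 0 with normal scores of ranks and 0 without decimal replicates 8 and 20, also chosen after seeing the data.

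Slopes of single genes that changed sign, where the slope passed in at least 1 of the fits compared, were those of Cabp7 on the cholinergic score in hexadecimal libraries alone (-0.22), Arpp21 on the oculomotor score without the dopamine score (-0.16) and Pvalb on the mammillary and subthalamic score with the libraries without Th (0.42) or the residual component (0.14). With the forebrain score as a covariate those of Lamp5 (-0.035) and Arpp21 (-0.20) on the pontine gray score changed sign, as did Pvalb on the forebrain score with the residual component (0.0154). The cause was not tested. Median-of-ratios scaling moved the median gene of a library by -0.17 to 0.22 on the log2 scale, and with it the share of all genes that rose with Cabp7 from 16.9% to 31.7% and the share that fell from 46% to 34.7%. The format difference was not run within 1 format, and no paired analysis was possible because the labels give no shared replicate numbers. At 15.2 M counts or more, depth limits Chat (median 1.48 CPM) and the 4 oculomotor genes below the filter.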
